A study of Mus musculus with 6 samples.

Results

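The 10 genes described here encode the enzymes that release fatty acids from stored triglyceride and the proteins that coat the lipid droplet of the adipocyte: Pnpla2, Lipe, Mgll, Abhd5, G0s2, Plin1, Plin2, Plin4, Plin5 and Cidec. They were taken by name from the 55039 genes of the deposited tables, each name matched 1 row, and all 10 passed the filter on low counts that left 17296 genes to test. Epididymal white adipose tissue (eWAT) came from 6 male C57BL/6 mice aged 6 to 7 weeks at the start of the study. The 3 mice of the cancer-associated cachexia group (CAC) carried a subcutaneous tumor of Lewis lung carcinoma (LLC) cells, a transplantable mouse lung cancer line given in phosphate-buffered saline (PBS). The 3 control mice (CONT) were injected with PBS only, and all tissue was taken 28 days after injection. Each mouse gave 1 poly(A) RNA sequencing library. A whole fat pad was sequenced, so fewer cells of a type and less RNA per cell cannot be told apart.

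Triglyceride is broken down in steps. Adipose triglyceride lipase, the product of Pnpla2, removes the first fatty acid, hormone-sensitive lipase (Lipe) acts on the diglyceride, and monoglyceride lipase (Mgll) frees the last fatty acid and glycerol. Abhd5 (CGI-58) activates the Pnpla2 enzyme and G0s2 inhibits it. At rest Perilipin 1 (Plin1) holds Abhd5 at the droplet surface, and phosphorylation by protein kinase A during fasting or adrenergic stimulation releases it.

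The 3 lipases share a short serine hydrolase motif, glycine, any residue, serine, any residue, glycine, and Abhd5 has asparagine at the place of that serine and is not itself a triglyceride lipase. The coding bases around this codon are printed because they mark which of these proteins cut the ester bond and which assists. They were read 5′ to 3′ on the coding strand from GENCODE M21 transcripts on GRCm38, and the capitals mark the codon of the serine or, in Abhd5, of the asparagine.
Pnpla2: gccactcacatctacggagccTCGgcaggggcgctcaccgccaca
Lipe: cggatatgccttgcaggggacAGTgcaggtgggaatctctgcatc
Mgll: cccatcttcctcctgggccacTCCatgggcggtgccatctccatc
Abhd5: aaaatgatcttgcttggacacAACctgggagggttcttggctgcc
The Pnpla2 window is codon 47 with its flanks, at chr7:141455404-141455448 on the plus strand in exon 1 of 9. In Lipe it is codon 736 of the longest coding transcript, at chr7:25383622-25383666 on the minus strand in exon 7 of 10. The Mgll window around codon 122 spans an intron and runs from chr6:88808121-88809353 on the plus strand. In Mgll the motif was found at 2 places, and the one printed holds the known catalytic serine. Abhd5 has the asparagine at codon 155, at chr9:122368191-122368235 on the plus strand in exon 3 of 7.

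The count totals ranged from 15713794 to 25926425 reads per library, and 1 CPM (a read count scaled to a common library size, adjusted by TMM) stood for 11.2 to 26.5 reads. The members took from 0.937% to 1.86% of a library's reads. CONT replicate 1 was the shallowest library and had 30.2% of its reads on mitochondrial genes, against 3.89% to 5.04% in the others. All 12 adipocyte markers were detected, and Adipoq (adiponectin) ran from 1692 to 2164 CPM in CONT and from 2031 to 3372 CPM in CAC. The summed FPKM (read counts scaled to gene length and to a library total) of these markers was 12631 to 29745 in CONT and 24361 to 25875 in CAC, which overlapped. CAC replicate 1 stood apart from the other CAC libraries in Lep (leptin), with 512 CPM against 4.0 and 0.415 CPM, while CONT had 409 to 697 CPM. Epididymis and testis transcripts were carried over unevenly, their 9 markers summing to 61.2, 1179.9 and 5968 FPKM in CONT and to 0, 5.07 and 1567 FPKM in CAC. Nothing in the labels says more of the replicates than that they are separate samples. The p-values set the difference between the groups against the spread between these mice.

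Pnpla2, Abhd5 and Plin5 were higher in every CAC library than in every CONT library, by about 2.57-fold, 2.45-fold and 3.20-fold. The other 7 genes overlapped between the groups. With edgeR's quasi-likelihood test and Benjamini-Hochberg adjustment over all genes, none of the 10 had an adjusted p under 0.05. That was so for all of the genes tested (0 called, 0%), of which 2294 had an unadjusted p under 0.05. DESeq2 called 965 genes at an adjusted p under 0.05 (2.91% of those tested), among them Pnpla2, Abhd5 and Plin5. With voom and sample quality weights, 956 genes (5.53%) passed, among them Pnpla2 and Abhd5. At an unadjusted p under 0.05 in edgeR there were 3 members, all higher in CAC, beside 13.3% of all genes in either direction and 6.31% higher in CAC. Groups that did not overlap were found for 3 of the 10 members and for 22.5% of all genes, or 11.8% in the direction of higher in CAC. These counts were not tested against the background, and the genes are described one by one.

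**Figure D1:**
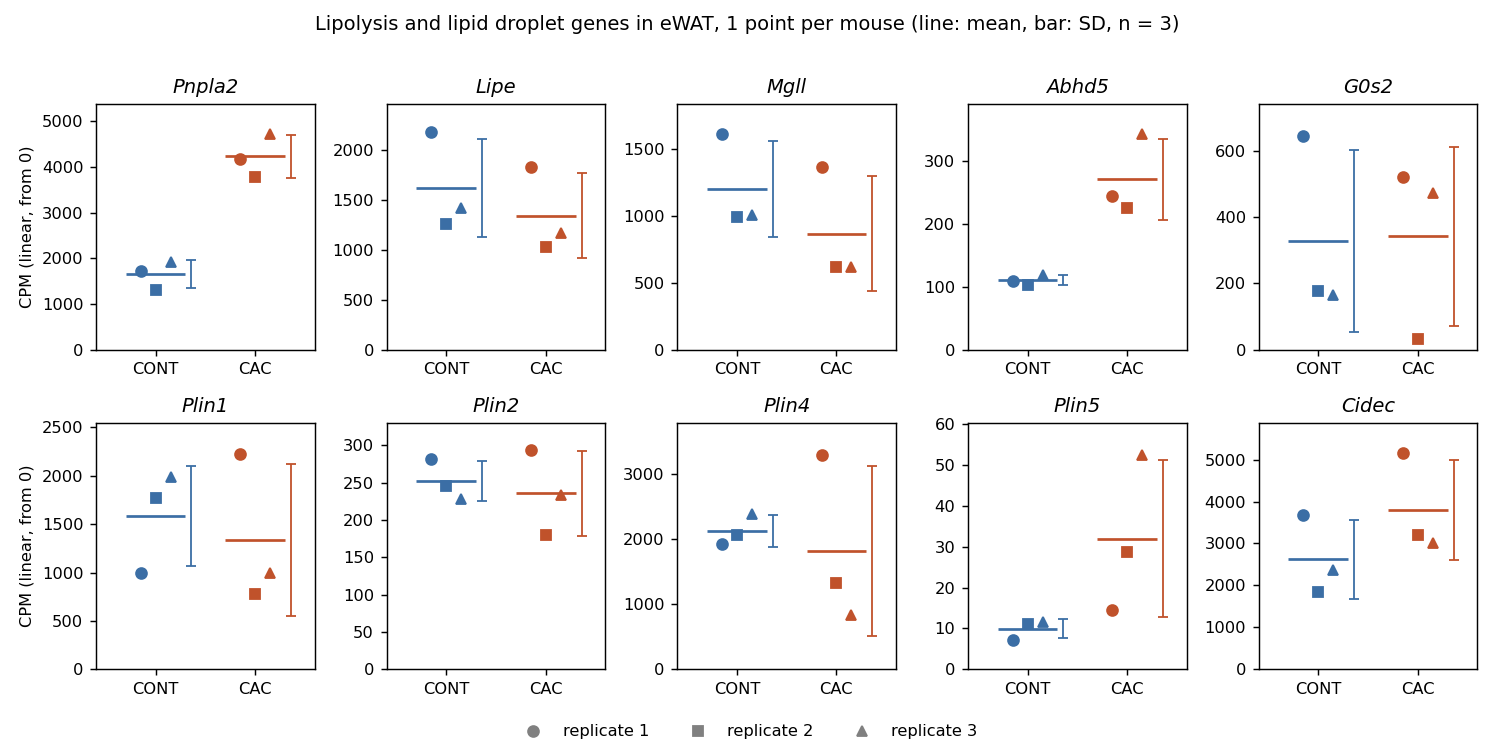
CPM of each gene (linear axis from 0) in the 3 CONT and 3 CAC libraries, 1 point per mouse, with the group mean as a line and the SD as a bar. The CAC points of Pnpla2, Abhd5 and Plin5 all lie above the CONT points, and CAC replicate 1 (circle) is the highest CAC point of Lipe, Mgll, G0s2, Plin1, Plin2, Plin4 and Cidec.

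Pnpla2 (ENSMUSG00000025509, GRCm38 chr7:141455198-141460743, plus strand) had 1718, 1312 and 1916 CPM in CONT and 4177, 3787 and 4725 CPM in CAC. The lowest CAC library was well above the highest CONT library, and neither group spread by more than 1.46-fold within itself. The log2 fold change was 1.36 (standard error 0.32, 95% interval 0.59 to 2.13), with an unadjusted p of 0.00432 and an adjusted p of 0.238 by edgeR's quasi-likelihood test. DESeq2 gave an adjusted p of 4.38e-06 and voom 0.0386, and over all settings the adjusted p ran from 1.34e-06 to 0.684. Per length, its level went from 439 ± 83.7 FPKM (SD, n = 3) to 1144 ± 129 FPKM. By mean FPKM it stood at place 68 of all genes listed in CONT and at place 23 in CAC.

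Lipe (ENSMUSG00000003123, chr7:25379527-25398710, minus strand) overlapped between the groups. Its values were 2174, 1256 and 1418 CPM in CONT and 1824, 1031 and 1168 CPM in CAC. Replicate 1 was the highest in both groups. CAC over CONT was -0.27 on the log2 scale (standard error 0.37, 95% interval -1.15 to 0.61; adjusted p = 0.783 in edgeR), and the interval leaves room for a level up to 1.53-fold higher or down to 0.450 of the CONT level.

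Mgll (ENSMUSG00000033174, chr6:88724412-88828360, plus strand) measured 1611, 988 and 1002 CPM in CONT and 1362, 618 and 620 CPM in CAC. CAC replicates 2 and 3 were below every CONT library and CAC replicate 1 was not. Its log2 fold change was -0.47 (standard error 0.43, 95% interval -1.49 to 0.55), with an adjusted p of 0.651 in edgeR.

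Abhd5 (ENSMUSG00000032540, chr9:122351608-122381524, plus strand), the co-activator, had 109, 103 and 118 CPM in CONT and 243, 225 and 343 CPM in CAC. The CONT libraries differed among themselves by only 1.14-fold and all CAC libraries lay above them. Its log2 fold change was 1.29 (standard error 0.23, 95% interval 0.73 to 1.85), with an unadjusted p of 0.00107 and an adjusted p of 0.215 in edgeR's quasi-likelihood test. Among the 10 members this was the smallest p, and it ranked 83 among all genes tested. DESeq2 gave an adjusted p of 2.71e-05 and voom 0.0302, within a range over all settings of 7.08e-07 to 0.684. Abhd5 was far less abundant than Pnpla2, at 14.9 ± 1.05 FPKM (SD, n = 3) in CONT and 37.1 ± 8.69 FPKM in CAC.

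G0s2 (ENSMUSG00000009633, chr1:193272161-193273217, minus strand), the inhibitor of the Pnpla2 enzyme, was the most variable member. It had 644, 177 and 164 CPM in CONT and 521, 32.0 and 474 CPM in CAC. CAC replicate 2 was the lowest of all libraries, and the CAC libraries differed by 16.3-fold among themselves. Its log2 fold change was 0.06 (standard error 0.99; adjusted p = 0.986 in edgeR), and the 95% interval ran from -2.32 to 2.44, so a difference of several-fold in either direction was not detectable with these mice. Its sign turned with the library left out, with a log2 fold change of 0.61 without CAC replicate 2, 1.02 without CONT replicate 1 and -0.37 to -0.23 without any of the others.

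Plin1 (ENSMUSG00000030546, chr7:79720218-79732903, minus strand), the main perilipin of white fat, had 997, 1766 and 1992 CPM in CONT and 2229, 778 and 998 CPM in CAC. The highest value of all was in CAC replicate 1 and the lowest in CAC replicate 2. The log2 fold change was -0.25 (standard error 0.50, 95% interval -1.44 to 0.94; adjusted p = 0.863 in edgeR). In voom with sample quality weights it was -0.89, with an unadjusted p of 0.0397 and an adjusted p of 0.155.

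Plin4 (ENSMUSG00000002831, chr17:56100591-56109803, minus strand), a perilipin abundant in white fat, had 1917, 2068 and 2386 CPM in CONT and 3298, 1325 and 826 CPM in CAC. The 3 CONT libraries were close together, whereas CAC replicate 1 was above them and CAC replicates 2 and 3 were below them. Its log2 fold change was -0.23 (standard error 0.53; adjusted p = 0.887 in edgeR), and -0.66 in voom (adjusted p = 0.282).

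Plin2 (ENSMUSG00000028494, chr4:86648386-86670060, minus strand), the perilipin found on droplets of many cell types, had 282, 246 and 228 CPM in CONT and 294, 180 and 233 CPM in CAC. Among the 7 overlapping members it had the smallest standard error, with a difference of -0.10 on the log2 scale (standard error 0.25, 95% interval -0.69 to 0.50; adjusted p = 0.898 in edgeR). The interval spans levels from 0.619 to 1.41 of the CONT level.

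Plin5 (ENSMUSG00000011305, chr17:56111601-56117596, minus strand), a perilipin of oxidative tissues that binds both Pnpla2 and Abhd5 proteins, was the rarest member. It had 7.22, 11.04 and 11.6 CPM in CONT and 14.5, 28.8 and 52.5 CPM in CAC, from 81, 252 and 256 reads and 352, 713 and 1390 reads. The lowest CAC library was only a little above the highest CONT library, and CAC replicate 3 was the highest by far. The log2 fold change was 1.68 (standard error 0.49, 95% interval 0.52 to 2.84), with an unadjusted p of 0.0116 and an adjusted p of 0.275 in edgeR. DESeq2 gave an adjusted p of 0.0261 and voom 0.0731, within a range over all settings of 7.49e-05 to 0.684. The DESeq2 call was lost when any library other than CAC replicate 1 was left out (adjusted p 0.0639 to 0.162 in DESeq2), so it was made in 2 of the 24 settings. Without CONT replicate 1, the library with the high mitochondrial share, the log2 fold change was 1.51 and the unadjusted p 0.0504 in edgeR. Without CAC replicate 3 it was 1.13.

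Cidec (ENSMUSG00000030278, chr6:113424634-113435760, minus strand), which promotes the fusion of droplets into the single large droplet of white adipocytes, had the highest mean FPKM of the members in both groups. In CPM it had 3669.6, 1834 and 2375 CPM in CONT and 5161, 3211 and 3003 CPM in CAC. CONT replicate 1 lay above CAC replicates 2 and 3, and the other CONT libraries lay below all CAC libraries. The log2 fold change was 0.53 (standard error 0.42, 95% interval -0.46 to 1.52; adjusted p = 0.598 in edgeR). Without CONT replicate 1 the groups did not overlap, and the log2 fold change was 0.86 with an unadjusted p of 0.0642 in edgeR. It was 0.27 without CAC replicate 1 and 0.33 without CONT replicate 2, with overlap.

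**Figure D2:**
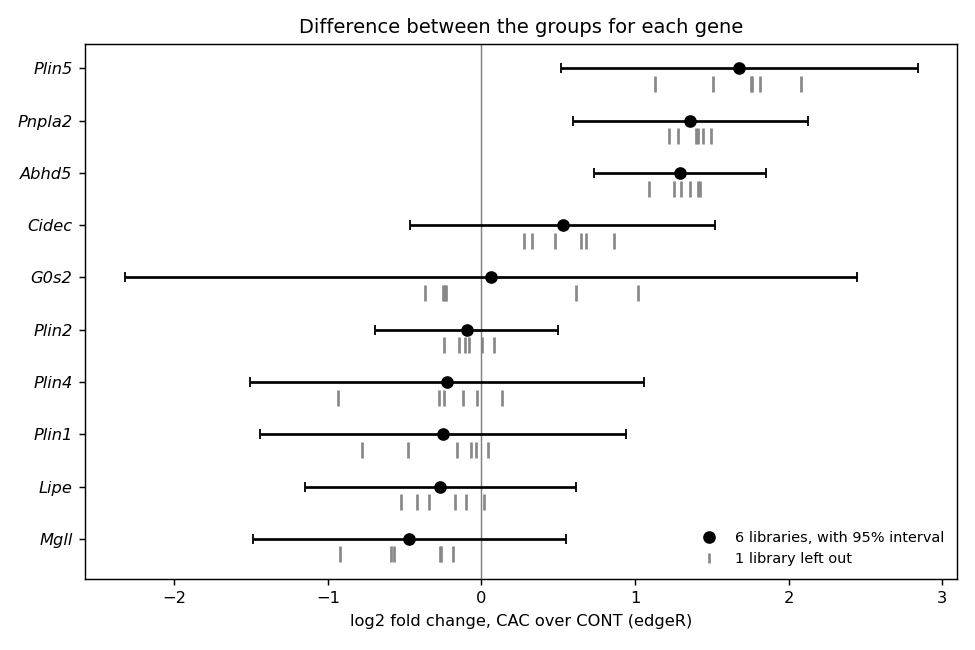
Log2 fold change of each gene, CAC over CONT (horizontal axis), from edgeR with all 6 libraries (black point, 95% interval as a bar) and with each library left out in turn (grey ticks). Every value of Plin5, Pnpla2 and Abhd5 is above 0, from 1.09 to 2.08 with a library left out, whereas G0s2, Plin2, Plin4, Plin1 and Lipe have values on both sides of 0.

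Exact two-sided permutation tests on these values cannot go below p = 0.1, the smallest that the 20 splits of 3 against 3 libraries allow. Groups that do not overlap always give that p, as Pnpla2, Abhd5 and Plin5 did. The 3 genes were higher in CAC and did not overlap in CPM or FPKM in all 24 settings tried, which vary the tool, scaling, filter and libraries. Leaving a library out can hardly make groups overlap that are already apart, so much of this count was fixed by the full data.

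Counts per length put the genes in the same order in both groups. By mean FPKM in CONT the order was Cidec (1140.1), Pnpla2 (439), G0s2 (304), Plin4 (296), Plin1 (274), Lipe (221), Mgll (190.4), Plin2 (57.7), Abhd5 (14.9) and Plin5 (3.83). In CAC it was Cidec (1671), Pnpla2 (1144), G0s2 (322), Plin4 (258), Plin1 (235), Lipe (186), Mgll (139.8), Plin2 (54.9), Abhd5 (37.1) and Plin5 (12.5). In CONT Pnpla2 overlapped with G0s2, and in CAC all its values were above those of G0s2. Neighbours from G0s2 to Mgll overlapped with each other in both groups, so their order was not resolved. Plin2 and Abhd5 were apart in CONT, and in CAC their ranges of 41.6 to 69.0 and 30.6 to 47.0 FPKM met.

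Ratios of FPKM within a library are free of library scaling, and 9 pairs were compared. The Lipe to Pnpla2 ratio was 0.649, 0.491 and 0.380 in CONT and 0.224, 0.140 and 0.127 in CAC. It was the only pair of the 9 whose groups did not overlap. The mean log2 difference was -1.64, a ratio 0.320 times that in CONT (exact permutation p = 0.1, the smallest possible; 0.54 after adjustment over the 9 pairs). Pnpla2 to Abhd5 was nearly constant over all 6 libraries, at 30.9, 25.03 and 32.0 in CONT and 33.8, 33.2 and 27.1 in CAC, with a log2 difference of 0.10. Lipase and co-activator transcripts thus kept about the same proportion while both were higher in CAC.

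The ratios that set Pnpla2 or Abhd5 against their brakes were less even. Pnpla2 to G0s2 was 0.769, 2.14 and 3.37 in CONT and 2.31, 34.2 and 2.88 in CAC. Only CAC replicate 2 lay outside the CONT range. Abhd5 to Plin1 was 0.0857, 0.0457 and 0.0463 in CONT and 0.0852, 0.225 and 0.269 in CAC. CAC replicates 2 and 3 lay above all CONT libraries, and CAC replicate 1 was level with CONT replicate 1. Mgll to Lipe was 0.859, 0.911 and 0.819 in CONT and 0.866, 0.695 and 0.615 in CAC, again with CAC replicate 1 among the controls.

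**Figure D3:**
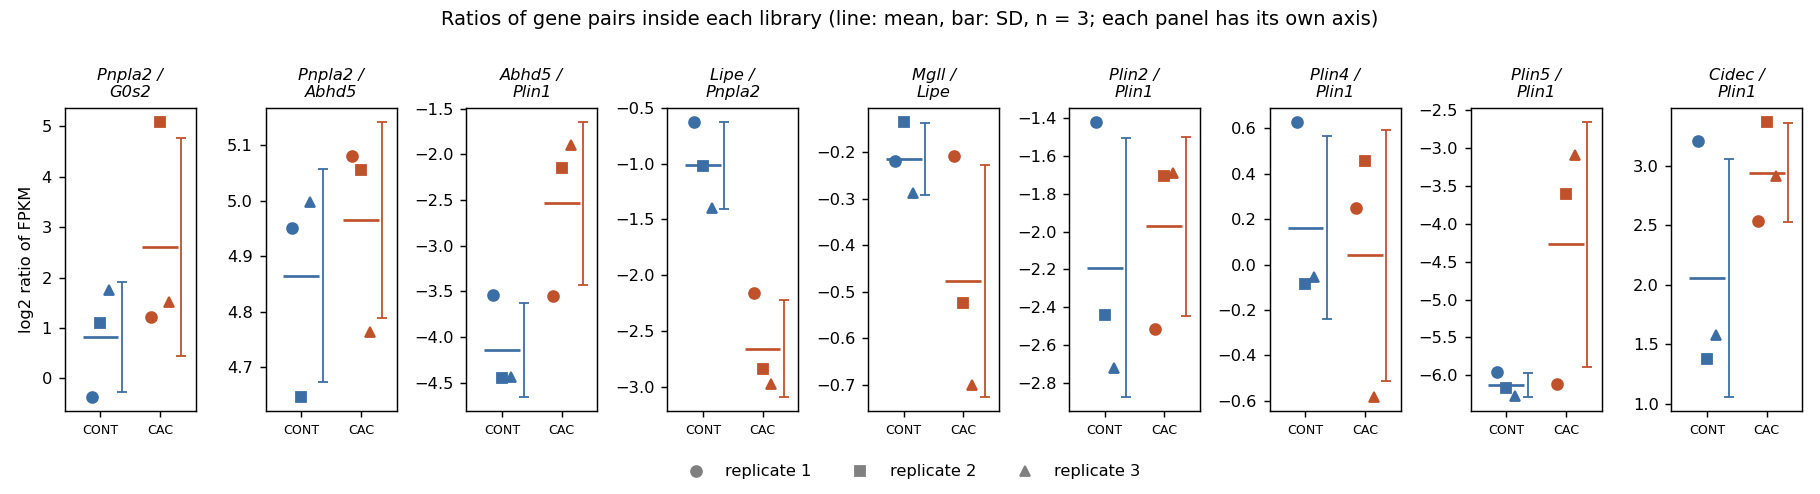
Log2 ratio of the FPKM of 2 genes inside each library for the 9 pairs (vertical axis, own scale per panel), 1 point per mouse with group mean (line) and SD (bar). Lipe over Pnpla2 is lower in every CAC library, whereas Abhd5 over Plin1 and Plin5 over Plin1 are high in CAC replicates 2 and 3 (square, triangle) only.

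Among the perilipins, Plin1 and Plin4 made up most of the summed FPKM of Plin1 to Plin5 in every library. The sum was 526, 663 and 748 FPKM in CONT and 949.7, 389.8 and 379 FPKM in CAC. Plin5 took 0.534%, 0.636% and 0.595% of it in CONT and 0.601%, 2.87% and 5.41% in CAC. Its share was higher in CAC replicates 2 and 3 than in any CONT library, while CAC replicate 1 lay inside the CONT range. The sum of the 7 markers of brown or beige adipocytes was likewise highest in CAC replicates 2 and 3, at 69.2, 40.1 and 32.0 FPKM in CONT and 35.4, 139.4 and 163 FPKM in CAC. Single markers did not all follow it, since Cox7a1 was lower in CAC without overlap (-1.75 on the log2 scale) and Ucp1 did not pass the filter on low counts. Their part in the Plin5 values was not tested. Plin4 took 51.2%, 43.1% and 44.3% in CONT and 49.5%, 47.8% and 30.8% in CAC, and Plin1 took 33.1% to 46.0% in CONT and 34.8% to 46.1% in CAC.

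**Figure D4:**
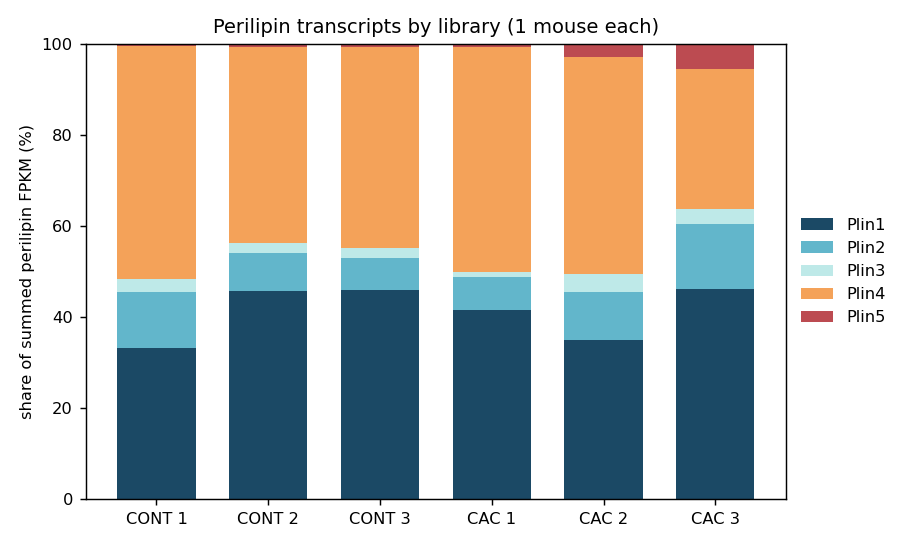
Share of each perilipin in the summed FPKM of Plin1 to Plin5 (vertical axis, %) in each of the 6 libraries. Plin1 and Plin4 fill most of every bar, and the Plin5 segment at the top reaches 2.87% and 5.41% in CAC replicates 2 and 3 against at most 0.636% in CONT.

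CAC replicate 1, the library with leptin at the control level, bore on several members. Without it, 7 members did not overlap between the groups (Pnpla2, Abhd5 and Plin5 higher, and Lipe, Mgll, Plin1 and Plin4 lower in CAC), beside 33.4% of all genes in the same fit. The log2 fold changes were then -0.52 for Lipe, -0.92 for Mgll, -0.78 for Plin1 and -0.93 for Plin4, and Plin4 alone of these had an unadjusted p under 0.05 in edgeR, at 0.0392 (adjusted p = 0.398). In DESeq2 without the same library the unadjusted p was 0.00882 for Mgll, 0.0375 for Plin1 and 0.00249 for Plin4, and Plin4 had an adjusted p of 0.0361, against 0.0361 to 0.996 over all its settings. In edgeR, Pnpla2 and Abhd5 were then at 1.41 each and Plin5 at 2.08.

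The members were also set against adipocyte markers, by subtracting the mean log2 CPM of 12 of them in each library. Pnpla2, Abhd5 and Cidec were then higher in CAC without overlap, by 1.96, 1.86 and 1.14 on the log2 scale. Of all genes, 6.41% were higher in this way. Plin5 overlapped on this scale, at a log2 difference of 2.11, and also against Adipoq alone, at 1.15. The marker scale rests on markers that differ much among the CAC libraries, leptin among them. At 4.0 and 0.415 CPM in CAC replicates 2 and 3, leptin lowers the marker mean there and shifts every gene up. Without this step the log2 fold change in edgeR was 1.36 for Pnpla2 and 0.53 for Cidec. Against Adipoq alone, Pnpla2 and Abhd5 stayed higher without overlap, by 1.00 and 0.90, beside 2.02% of all genes, and Cidec overlapped at 0.18. Lipe, Mgll, Plin2 and Plin4 were then lower without overlap, at log2 differences of -0.64, -0.91, -0.49 and -0.83, beside 21.8% of all genes. Adipoq itself was 0.40 higher in CAC on the log2 scale (standard error 0.33), which shifts every gene down by that much on this scale.

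Markers of some other cells also differed between the groups. All 6 neutrophil markers were higher in CAC without overlap, summing to 3.86 to 62.3 FPKM in CONT and 187 to 1422 FPKM in CAC, and Mmp8 and Ly6g were at 0 in CONT replicate 1. An unadjusted p under 0.05 was found for 5 of the 6 and an adjusted one for 0 in edgeR, and 11.8% of all genes were higher without overlap. The 8 markers of B and plasma cells summed to 16.6 to 34.2 FPKM in CONT and 3.42 to 7.60 FPKM in CAC, and 6 of them were lower without overlap, beside 22.5% of all genes that did not overlap in either direction. Of the 8, 3 had an unadjusted p under 0.05 and 0 an adjusted one in edgeR. The 14 macrophage markers summed to 1779.7 to 2015 FPKM in CONT and 937 to 1738 FPKM in CAC, without overlap. Without Lpl, which is also an adipocyte marker, the other 13 overlapped, summing to 476 to 1197 FPKM in CONT and 499 to 869 FPKM in CAC, and of the single genes Gpnmb alone did not overlap, being higher in CAC. No marker of the neutrophil, macrophage and B cell lists was at 0 in all libraries. Their part in the values of Pnpla2, Abhd5 and Plin5 was not tested.

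Genes whose spans meet a member's could share its reads, since the strand setting of the counting is not given in the sources used here. The antisense genes that overlap Lipe (4732471J01Rik, 609 reads over all libraries against 185316), Mgll (Gm26588, 250 against 127678) and Abhd5 (A730085K08Rik, 49 against 26789) had few reads, as did Gm43999 (77), Gm44005 (61), Gm43937 (38) and Gm44001 (23), which overlap Mgll. Hdgfl2, on the other strand, overlaps Plin4 by 17 bases and had 8709 reads against 256515. G0s2 lies inside the span of Lamb3 on the other strand (671 reads against 40923). Plin4 and Plin5 are neighbours on the same strand, 1798 bases apart, with 3044 reads for Plin5. Plin5 and Plin4 did not go together over the libraries, since in CAC replicate 3 Plin5 was highest and Plin4 lowest.

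Pnpla2 and Abhd5 had like patterns over the 6 libraries. The measure used takes in the difference between the groups, so it does not show likeness within a group. Within CONT the SD of log2 CPM was 0.281 for Pnpla2 and 0.0974 for Abhd5, and within CAC it was 0.160 and 0.325. Likeness was taken as the root mean square difference of log2 CPM over the 6 libraries, each gene centred on its own mean, among 11936 genes with a mean above 5 CPM. By this measure Abhd5 was at place 4 for Pnpla2 (0.159, where the median gene had 0.791), after Car5b (0.102), Abcg1 (0.107) and Epb41 (0.121). For Abhd5 the nearest were Sema7a (0.0966), Slc39a8 (0.124) and Bnip3 (0.136), with Pnpla2 at place 8. Car5b is a mitochondrial carbonic anhydrase, Abcg1 a cholesterol exporter and Bnip3 a mitophagy receptor. Plin5 was nearest to Gde1 (0.181), Xbp1 (0.215), a transcription factor of the unfolded protein response, and Hmga1 (0.220), and it held Abhd5 at place 152. Lipe had Mgll at place 232 and Pnpla2 at place 10209. The lipases of the first and second step thus had unlike patterns over the same 6 mice.

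The promoters of Pnpla2 and Abhd5 are given because their transcripts had like patterns. They run from 250 bases before to 50 bases after the RefSeq start on GRCm38.p6, 5′ to 3′ on the gene's strand, and capitals mark matches to the motifs searched.
Pnpla2: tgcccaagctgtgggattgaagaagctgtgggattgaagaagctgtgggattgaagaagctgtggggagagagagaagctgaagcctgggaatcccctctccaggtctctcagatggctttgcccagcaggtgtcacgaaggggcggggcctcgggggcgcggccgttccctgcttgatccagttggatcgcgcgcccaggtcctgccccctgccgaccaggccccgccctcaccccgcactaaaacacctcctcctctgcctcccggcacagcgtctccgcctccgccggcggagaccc
Abhd5: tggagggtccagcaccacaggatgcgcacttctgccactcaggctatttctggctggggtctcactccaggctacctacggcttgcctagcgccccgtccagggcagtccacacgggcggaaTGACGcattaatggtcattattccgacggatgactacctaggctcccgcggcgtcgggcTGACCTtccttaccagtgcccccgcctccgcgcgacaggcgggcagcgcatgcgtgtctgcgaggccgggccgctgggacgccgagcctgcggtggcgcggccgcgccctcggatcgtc
The Pnpla2 window is chr7:141454938-141455237 and the Abhd5 window chr9:122351366-122351665, both on the plus strand. Both strands of 32851 mouse promoters of this length were searched for 10 motifs. The nuclear receptor site AGGTCA was held by 16.3% of them, and its repeat with 1 base between, the usual binding element of the PPAR factors, by 0.0396%. The glucocorticoid receptor element ACANNNTGT was held by 6.85%, the STAT site TTCNNNGAA by 8.30% and the FOXO site GTAAACA by 3.65%. The cyclic AMP element TGACGTCA was held by 1.79%, and its shorter form TGACG, which lies within it, by 20.8%. The E-box CACGTG was held by 7.15%, the CCAAT box by 37.4% and the TATA box, searched as TATAAA, by 13.6%. Abhd5 had the short cyclic AMP form 128 bases before its start and the nuclear receptor site on the opposite strand at base -69. None of these motifs was found in the Pnpla2 window. The repeat of AGGTCA was in 0 of the 10 members. These are matches of letters and say nothing of binding in this tissue.

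Other genes of lipid breakdown were read from lists of pathway genes, with 0 at an adjusted p under 0.05 in edgeR in every list, beside a median log2 fold change of -0.06 over all genes tested. An unadjusted p under 0.05 was found for 13.3% of all genes (6.31% higher in CAC), and for 33.3% of the hydrolases, 10% of the droplet proteins, 33.3% of the signalling genes, 29.4% of the genes for the fate of the products and 33.3% of the transcription factors. The lists were not tested against that share. Of 25 other neutral lipid hydrolases and lipase inhibitors, 21 were tested, 5 had an unadjusted p under 0.05 and were higher in CAC and 2 were lower, and the median log2 fold change was 0.17. Pnpla7, a lysophospholipase of the Pnpla2 family, had 18.5, 33.4 and 36.3 CPM in CONT and 61.1, 71.2 and 69.6 CPM in CAC (log2 fold change 1.19, standard error 0.28). Ces1d, a carboxylesterase that hydrolyses triglyceride in adipocytes, had 645, 709.7 and 972 CPM in CONT and 2077, 1869.5 and 1553 CPM in CAC (1.24, standard error 0.30). Ddhd2, a triglyceride and phospholipid hydrolase, was at 0.87 on the log2 scale (standard error 0.22). The adjusted p of these genes was 0.233 to 0.251 in edgeR.

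Of 33 other lipid droplet proteins 30 were tested, with 1 higher and 2 lower at an unadjusted p under 0.05 and a median log2 fold change of 0.15. Fitm2, which acts in the formation of droplets at the endoplasmic reticulum, had 128, 145 and 163 CPM in CONT and 454, 322 and 436 CPM in CAC, 1.47 higher on the log2 scale (standard error 0.24; adjusted p = 0.192 in edgeR). Nsdhl, a sterol synthesis enzyme found on droplets, had 25.9, 47.9 and 56.1 CPM in CONT and 18.0, 14.9 and 12.5 CPM in CAC (-1.52, standard error 0.32). Arfgap1, of the coatomer cycle, was at -0.43 (standard error 0.17).

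Of 30 genes of lipolytic signalling all were tested, 7 with an unadjusted p under 0.05 were higher in CAC and 3 lower, and the median log2 fold change was 0.33. Pde3b, the phosphodiesterase through which insulin lowers cyclic AMP in adipocytes, had 228, 335 and 397 CPM in CONT and 848, 502 and 691 CPM in CAC (1.09, standard error 0.32; adjusted p = 0.283 in edgeR). Pde4d, another phosphodiesterase that breaks down cyclic AMP, ranged from 1.69 to 10.1 CPM in CONT and from 17.0 to 219.8 CPM in CAC (3.92, standard error 1.06). Both lay above the controls in all 3 CAC libraries.

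Of 20 genes for the fate of released fatty acid and glycerol 17 were tested, with 4 higher and 1 lower at an unadjusted p under 0.05 and a median log2 fold change of 0.21. Lpin1, which makes diglyceride from phosphatidate, had 208, 315 and 371 CPM in CONT and 1351, 1082 and 1214 CPM in CAC, and its log2 fold change was 2.03 (standard error 0.31, adjusted p = 0.179 in edgeR). Slc27a1, a fatty acid transport protein, had 271, 471 and 777 CPM in CONT and 2081, 3017 and 3443 CPM in CAC (2.49, standard error 0.48). Gpam and Dgat1, the first and last enzymes of triglyceride synthesis, were at log2 fold changes of 1.99 (standard error 0.82) and 0.64 (standard error 0.26). Fabp5, a fatty acid binding protein, was at -1.24 (standard error 0.45). Other enzymes of triglyceride synthesis lay the other way without an unadjusted p under 0.05, with Agpat2 at -0.50, Gpd1 at -0.49 and Dgat2, of the droplet list, at -1.34.

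Of 21 transcription factors known to act on Pnpla2, Lipe or perilipin genes, all tested, 6 with an unadjusted p under 0.05 were higher in CAC and 1 lower, and the median log2 fold change was 0.42. Cebpd had 57.7, 33.9 and 30.3 CPM in CONT and 127, 119 and 138 CPM in CAC (1.66, standard error 0.28). Irf4, described as an inducer of lipase genes in fasting, ranged from 5.97 to 13.9 CPM in CONT and had 55.4, 1040.1 and 195 CPM in CAC (5.28, standard error 1.16), with CAC replicate 2 far above the others. Stat3 was at 1.03 (standard error 0.27). The adjusted p of the 3 genes was 0.215 to 0.256 in edgeR.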

How the data were processed

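Total RNA of eWAT was extracted with TRIzol, and poly(A) libraries were sequenced on an Illumina HiSeq instrument. Reads were cleaned by the authors with in-house code, then mapped to GRCm38 (Ensembl 94) using HISAT2 2.0.5. featureCounts 1.5.0-p3 is named in the submitters' processing notes. The deposited counts are whole reads per gene, not normalized. The FPKM values that the authors deposited rest on those counts, scaled to gene length and to a depth per library that is not the sum of the listed counts. Samples were grouped by their GEO labels.

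The counts were tested with edgeR 4.0.16 in R 4.3.3 (TMM, filter on low counts by group, robust quasi-likelihood test with condition as the only term, Benjamini-Hochberg adjustment over the 17296 genes tested). Alternatives used DESeq2 1.42.0 and limma 3.58.1, with voom and quality weights or on log2 FPKM with a pseudocount of 1 or 0.1, keeping genes that reached 0.5 FPKM in 3 or more libraries. Fold changes on the latter scale understate those of low genes. Standard errors come from the F statistic, and intervals are 95%. The scripts were tested on simulated data. Depth was 15713794 to 25926425 counted reads, and the spread between mice, with a common dispersion of 0.265, exceeded counting error. No pair of libraries agreed within sampling noise (chi-square per degree of freedom 74.3 or more).

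The members and the lists of pathway and marker genes were chosen with earlier results of these data known. Named genes are the members, the genes of each pathway list with an unadjusted p under 0.05 (the 3 with the smallest p where more than 6 passed), the 3 genes most like a member with such a p, and genes whose span overlaps a member's. Genes lying nearest to a member without overlap were also looked up, and of these only Plin4 and Plin5 are named. Adipoq, Lep, Mmp8, Ly6g, Gpnmb, Cox7a1, Ucp1, Agpat2, Gpd1, Dgat2 and the likeness places of Lipe were picked after their values were seen. Of the list genes Gyk was not matched. One gene that this rule names in the list of lipolytic signalling is not reported here. Promoters were taken from RefSeq (all 10 members matched), and coding windows from GENCODE M21. In DESeq2, genes without an adjusted p stayed out of the counts of calls.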

Additional observations from a re-analysis of the deposited data

How the results depend on the processing

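Scaling and filters (relative log expression, upper quartile, mitochondrial genes left out, no filter, at least 10 counts in every library, no robust estimation) left 0 genes at an adjusted p under 0.05 and the same 3 of 10 members at an unadjusted p under 0.05, and the tool changed this more. Genes with an adjusted p under 0.05 numbered 0 in edgeR, also with any 1 library left out, 965 in DESeq2, 956 in voom, and 7 and 8 in limma on log2(FPKM + 1) and log2(FPKM + 0.1). In DESeq2 without 1 library, an alternative chosen after seeing the data, they numbered 2102, 623 and 888 without CONT replicates 1 to 3 and 1506, 696 and 615 without CAC replicates 1 to 3. Genes with an unadjusted p under 0.05 numbered 2294, 1384 (without CAC replicate 2) to 3032 (without CONT replicate 1) with a library left out, 4920 in voom, and 4453 and 3632 in DESeq2 without CONT replicate 1 and CAC replicate 1. Members at that level numbered 3, 2 to 4 with a library left out, 5 in voom and 6 in DESeq2 without CAC replicate 1. The members added in voom were Plin1, at a log2 fold change of -0.89, and Cidec, at 0.69. Members whose groups did not overlap numbered 3, and 3 to 7 with a library left out, with the 7 without CAC replicate 1 in edgeR and in DESeq2. The cause was not tested.

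The direction of 5 members depended on the setting. With a library left out, the log2 fold change of Lipe ran from -0.52 to 0.018 (without CONT replicate 1), that of Plin1 from -0.78 to 0.040 (without CAC replicate 2), that of Plin2 from -0.24 to 0.079 (without CAC replicate 2, and 0.0068 without CONT replicate 1), that of Plin4 from -0.93 to 0.13 (without CAC replicate 3) and that of G0s2 from -0.37 to 1.02. In DESeq2 with the same libraries left out, Lipe was at 0.058, Plin1 at 0.060, Plin2 at 0.090 and 0.050 and Plin4 at 0.15. G0s2 was at -0.0051 with upper-quartile scaling, -1.01 in voom, and -0.38 and -0.39 on FPKM. Without CONT replicate 2, CONT replicate 3, CAC replicate 1 and CAC replicate 3 it was at -0.23, -0.25, -0.37 and -0.24 in edgeR, and at -0.23, -0.25, -0.38 and -0.24 in DESeq2. Log2 differences from Adipoq alone were 1.00 for Pnpla2, -0.64 for Lipe, -0.91 for Mgll, 0.90 for Abhd5, -0.71 for Plin1, -0.49 for Plin2, -0.83 for Plin4 and 0.18 for Cidec.

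Replicate numbers are shared by the groups in the labels. The deviations of same-numbered libraries correlated at 0.27, -0.30 and -0.29 over genes. These values gave no clear sign of a pairing, and so few of them cannot exclude one. With the replicate number as a block, 1 gene had an adjusted p under 0.05, no member did, and G0s2 was at a log2 fold change of -0.39.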

Other observations

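Of 8 markers of fibroblasts and progenitors, 4 had an unadjusted p under 0.05 in edgeR and all 4 were lower in CAC, with 0 at an adjusted p under 0.05, beside 13.3% of all genes at that unadjusted p. Dcn (decorin) lay the other way, higher in CAC without overlap, at 0.60 on the log2 scale. Col3a1, a fibrillar collagen, had 539, 982 and 941 CPM in CONT and 317, 173 and 127 CPM in CAC, a difference of -2.0 on the log2 scale (standard error 0.44). The 8 markers together summed to overlapping FPKM values, 258.6 to 290.4 in CONT and 198 to 278 in CAC.

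Pnpla3, a relative of Pnpla2 whose protein also binds Abhd5, had 210.3, 288 and 138 CPM in CONT and 65.8, 6.82 and 6.15 CPM in CAC, a difference of -3.02 on the log2 scale (standard error 1.00, unadjusted p 0.0211, adjusted p = 0.305 in edgeR's quasi-likelihood test). Among the listed genes of the Pnpla2 family it was the only one besides Pnpla6 with an unadjusted p under 0.05 and a lower level in CAC. Insr, Irs1 and Irs2 of insulin signalling, which restrains lipolysis, were higher in every CAC library, at log2 fold changes of 1.25, 1.63 and 1.91. Their adjusted p was 0.284, 0.322 and 0.291 in edgeR, and 11.8% of all genes were higher in CAC without overlap. Insr, Irs1 and Irs2 were all lowest in CONT replicate 1. Akt2 and Pik3r1 of the same signalling overlapped between the groups, at -0.31 and 0.17. Pnpla3, the insulin signalling genes, Col3a1 and Dcn here were named after their values were seen.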
